A study of Mus musculus with 12 samples.

Results

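Interferon response genes are the transcripts that a cell switches on when interferon binds its receptors. The 46 genes described here were chosen by symbol, as mouse genes known to be induced by type I or type II interferon, and were found among the 55359 genes of the count table through their Ensembl identifiers. All 46 were matched, and all 46 passed the filter on low counts, which left 15274 genes for testing. They fall into 6 roles, namely 4 signalling and transcription factors, 3 sensors of nucleic acids, 18 antiviral effectors, 10 genes of the ISG15, PARP, TRIM and IFI27 kinds, 8 large and small GTPases of the guanylate-binding and IRG families, and 3 genes of antigen peptide processing.

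The livers came from male C57BL/6NTac mice in a study of mRNA therapy for metabolic dysfunction-associated steatotic liver disease, the fatty liver disease that accompanies obesity. Mice of the lean group (n = 4) were fed normal chow and given control mRNA. HFD control mice (n = 4) were fed a high-fat diet and given control mRNA as well, and NM-FGF19 mice (n = 4) ate the high-fat diet and received mRNA for non-mitogenic FGF19, a form of the gut hormone FGF19. Every mouse of the 3 groups was injected weekly for 6 weeks with mRNA packed in lipid nanoparticles (LNPs), and its liver was collected 24 hours later than the final dose. No group without LNPs was analysed here, so the levels below all belong to livers that had received mRNA-LNPs the day before. The series text states an age of 24 weeks and 21 weeks on the diets ahead of treatment, whereas the sample labels state 28 weeks of feeding. The HFD control libraries carry the name mOX40L, and Tnfsf4, the mouse gene for OX40L, had 0 counts in every lean and HFD control library and at most 2 counts in an NM-FGF19 library. These counts do not settle what that name refers to, and the labels give control mRNA for this group.

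Type I interferons act through a receptor on nearly all cells and drive a complex that holds STAT2 and IRF9 and binds interferon-stimulated response elements (ISREs). Interferon gamma, the type II interferon, has a receptor of its own and acts through gamma-activated sites (GAS) in promoters, and IRF1 then adds to the response. The products block viral RNA translation, degrade RNA, damage vacuoles that hold microbes and load peptides for T cells, and in liver both hepatocytes and macrophages can make them.

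Libraries held 23743415 to 33257260 counts. Levels are given as CPM, which scales the read counts of a gene by the library total after adjustment with the TMM method, and 3 counts corresponded to 0.0792 to 0.153 CPM. Levels are not corrected for gene length, so they can be compared between livers for a gene but not between genes. On the first 2 principal components of all genes tested, lean 3, HFD control 3 and NM-FGF19 4 stood apart from the rest of their groups. HFD control 2 lay at 1.12 on the first component, against 38.0 to 72.8 in the rest of its group. The TMM factor of lean 3 was the lowest, at 0.779. Replicates correlated at 0.946 to 0.98 across genes. Hepatocyte markers such as Alb were present in each library.

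In the livers of mice on the high-fat diet, a broad set of these genes stood above the lean level. HFD control exceeded lean for 23 of the 46 genes and fell below it for 0, by edgeR's quasi-likelihood test at an adjusted p of 0.05, the test meant wherever a gene is said to be called, against 5.04% of all genes tested called higher and 3.29% called lower. At an unadjusted p under 0.05 there were 32 genes higher and 2 lower, and DESeq2 and limma voom also called 0 lower. The median log2 change of the 46 genes was 1.04, beside -0.02 over all genes tested, and single genes ranged from -0.65 to 2.46. All 4 HFD control livers lay above all 4 lean livers for 26 of the 46 genes, against 8.4% of all genes tested. NM-FGF19 livers had levels that mostly overlapped those of HFD control, with 0 of 46 genes called in either direction, a smallest adjusted p of 0.183 and a median log2 difference of 0.05. All 4 NM-FGF19 livers lay above all 4 HFD control livers for 3 genes (Irf9, Ifih1 and Ifi27), against 3.23% of all genes tested, and below them for 1 gene (Rsad2), against 2.38%. At an unadjusted p under 0.05 there were 4 genes higher and 2 lower in NM-FGF19 than in HFD control, DESeq2 called 1 gene higher, and limma voom called 0. Across all genes tested, 0.282% were called higher and 0.151% lower in that comparison. Against lean, NM-FGF19 was higher for 13 of 46 genes and lower for 0, where 1.01% of all genes tested were called higher and 0.484% lower, and the median log2 change was 0.87. At an unadjusted p under 0.05 there were 41 genes higher and 0 lower, and DESeq2 and limma voom called 0 lower. The shares of all genes called are at an adjusted p, so they are not the background of the counts at an unadjusted p. Shares of all genes at an unadjusted p are not given here.

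The 23 calls of HFD control against lean depended in part on single livers. Without HFD control 1 there were 15 calls, without HFD control 3 there were 14, and without lean 3 and HFD control 3 together there were 13. Calls fell over all genes as well, where the 770 called higher became 445, 331 and 323 in these fits. For NM-FGF19 against lean, the 13 calls became 7 without lean 3, 6 without lean 4, 7 without NM-FGF19 1 and 6 without NM-FGF19 4. Among all genes, the 154 called higher in that comparison became 83, 56, 47 and 43 in the same fits. The 2 high-fat groups were compared with the same 4 lean livers, so the 13 genes called in NM-FGF19, all of which are among the 23 called in HFD control, are not a separate set of evidence.

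**Figure D1:**
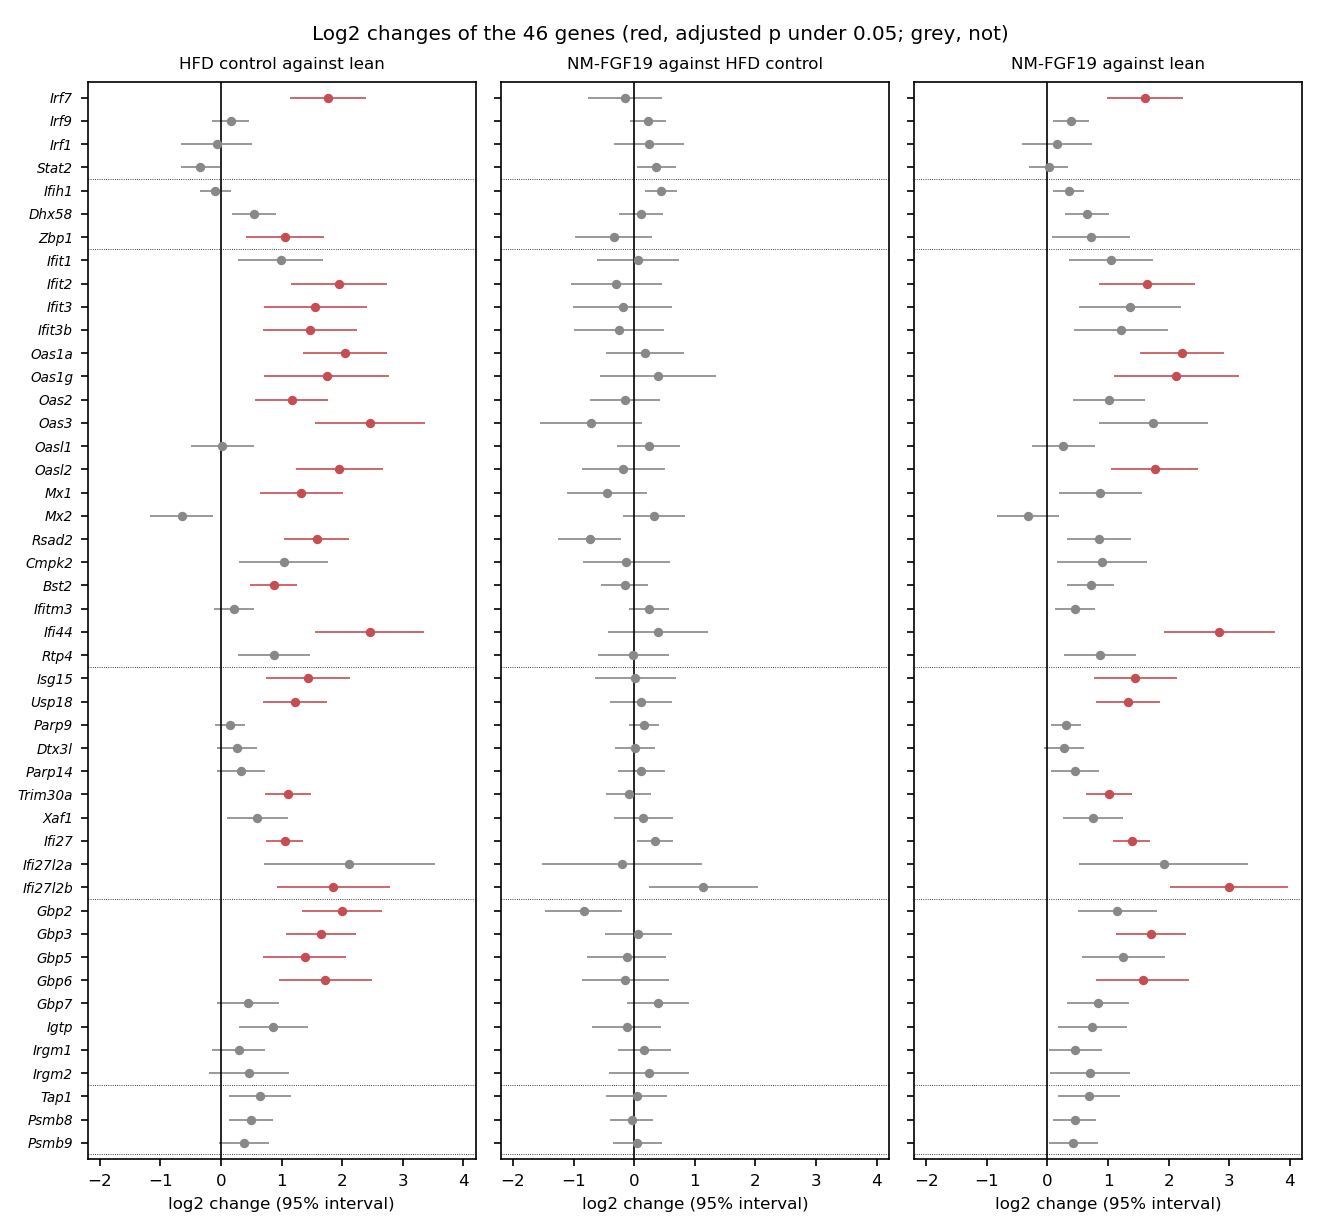
Log2 change of each of the 46 genes, ordered by role, in the 3 comparisons, with points for the edgeR estimate and bars for its 95% interval. Red points passed an adjusted p of 0.05, with 23 in HFD control against lean, 0 in NM-FGF19 against HFD control and 13 in NM-FGF19 against lean.

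Promoters of the genes were searched for the 2 binding elements, since the members were chosen for induction and not for sequence. RefSeq promoters of the mouse build GRCm38.p6, from 250 bases before to 50 bases after the start of a transcript, were at hand for 33 of the 46 genes, in 38 windows. Bases just after the start were found in a transcript of the gene for 28 of the 38 windows (73.7%). They were not found for the windows of Stat2, Oas1a and Trim30a printed below, so positions there rest on the RefSeq start alone. The counts were made on mm39, so these coordinates belong to the promoters only. An ISRE was counted wherever 2 GAAA half-sites were spaced by any 2 bases, and a GAS wherever TTC and GAA were spaced by any 3 bases, both on either strand. An ISRE match was present in 20 of the 33 genes (60.6%), against 3.99% of all genes with a promoter. By window it was present in 21 of 38 (55.3%), against 3.44% of all 32851 promoters. A GAS match was present in 10 of the 33 genes (30.3%), against 9.55% of all genes with a promoter. By window it was present in 10 of 38 (26.3%), against 8.3% of all promoters. Of the 16 genes with a promoter that were higher in HFD control than in lean, 12 had an ISRE match, and of the 17 not called, 8 had one. The guanylate-binding and IRG genes had an ISRE match in 7 of 7, the antiviral effectors in 9 of 14, the transcription factors in 1 of 4 and the peptide-processing genes in 0 of 3. A match of this kind is a description of letters and does not show that a factor binds there.

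Of each role, the gene with a match and the smallest adjusted p in HFD control against lean is shown, which is Stat2 for the transcription factors. The 6 promoters are read 5′ to 3′ on the gene's strand, with ISRE or GAS matches in capitals. Stat2 (chr10:128270248-128270547, plus strand) has its ISRE match 222 bases before the start and was not called, while the matches of Trim30a (chr7:104446076-104446375, minus strand), Gbp2 (chr3:142620413-142620712, plus strand) and Oas1a (chr5:120907476-120907775, minus strand) belong to genes called higher in HFD control. The Oas1a window holds 2 overlapping ISRE matches and, upstream of them, a GAS match. Ifih1 (chr2:62646206-62646505, minus strand) has an ISRE match after the start, and Psmb8 (chr17:34197945-34198244, plus strand) has a GAS match alone.
Stat2: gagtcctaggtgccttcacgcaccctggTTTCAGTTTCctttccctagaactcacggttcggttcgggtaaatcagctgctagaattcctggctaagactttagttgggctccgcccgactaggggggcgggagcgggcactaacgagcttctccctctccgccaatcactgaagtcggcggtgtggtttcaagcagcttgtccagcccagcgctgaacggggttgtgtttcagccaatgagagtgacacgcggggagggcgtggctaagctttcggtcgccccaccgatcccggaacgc
Ifih1: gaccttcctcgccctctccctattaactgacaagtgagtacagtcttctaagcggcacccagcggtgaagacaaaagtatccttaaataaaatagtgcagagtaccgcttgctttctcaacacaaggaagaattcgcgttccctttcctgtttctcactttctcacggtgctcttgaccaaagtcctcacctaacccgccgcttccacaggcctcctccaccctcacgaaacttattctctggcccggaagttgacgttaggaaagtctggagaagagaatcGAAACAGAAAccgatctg
Oas1a: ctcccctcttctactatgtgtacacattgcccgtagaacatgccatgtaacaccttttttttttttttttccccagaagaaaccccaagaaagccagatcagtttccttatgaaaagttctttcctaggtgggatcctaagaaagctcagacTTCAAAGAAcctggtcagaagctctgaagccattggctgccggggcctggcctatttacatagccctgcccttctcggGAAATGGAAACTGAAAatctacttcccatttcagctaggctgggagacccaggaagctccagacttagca
Trim30a: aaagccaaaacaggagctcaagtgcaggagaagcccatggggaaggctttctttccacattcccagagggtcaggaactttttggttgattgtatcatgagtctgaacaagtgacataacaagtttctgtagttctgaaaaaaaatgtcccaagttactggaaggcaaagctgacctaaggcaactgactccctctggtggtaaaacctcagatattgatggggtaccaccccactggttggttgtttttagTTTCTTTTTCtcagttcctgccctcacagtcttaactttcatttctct
Gbp2: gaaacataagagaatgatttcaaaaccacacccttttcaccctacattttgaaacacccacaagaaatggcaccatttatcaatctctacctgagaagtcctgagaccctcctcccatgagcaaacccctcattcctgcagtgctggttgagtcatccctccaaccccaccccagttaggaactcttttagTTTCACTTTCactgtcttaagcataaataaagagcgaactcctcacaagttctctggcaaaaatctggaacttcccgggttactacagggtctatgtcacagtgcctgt
Psmb8: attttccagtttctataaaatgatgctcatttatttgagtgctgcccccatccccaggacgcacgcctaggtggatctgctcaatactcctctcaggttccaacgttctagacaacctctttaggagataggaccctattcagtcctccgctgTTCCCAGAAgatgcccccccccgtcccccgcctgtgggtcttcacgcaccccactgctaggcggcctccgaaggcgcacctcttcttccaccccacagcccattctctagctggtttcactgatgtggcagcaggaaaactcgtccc

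Among the signalling and transcription factors, Irf7 rose, and none of the other 3 was called in any comparison. Irf7 (ENSMUSG00000025498), the factor that amplifies type I interferon production, stood at 49.1, 51.5, 34.9 and 44.8 CPM in lean livers 1 to 4. It stood at 185, 106, 203 and 118 CPM in HFD control livers 1 to 4 and at 93.8, 103, 126 and 228 CPM in NM-FGF19 livers 1 to 4. Every liver on the high-fat diet was above every lean liver. The log2 change of HFD control against lean was 1.76 ± 0.29 (SE; edgeR adjusted p = 0.00685), and that of NM-FGF19 against lean was 1.61 ± 0.29 (edgeR adjusted p = 0.0214). The second of these lost its call without lean 3 or without lean 4, with an adjusted p of up to 0.0598.

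Irf9, Irf1 and Stat2, which act at the promoters of the other genes, had overlapping levels in lean and HFD control. Stat2, which encodes a subunit of the ISRE-binding complex and whose promoter is printed above, was at 73.9, 96.0, 74.7 and 103 CPM in lean, 70.1, 76.3, 68.5 and 59.1 CPM in HFD control and 104, 70.6, 88.8 and 88.1 CPM in NM-FGF19, and all 3 groups overlapped. Irf9, the main DNA-binding subunit of that complex, ranged over 26.5 to 42.9 CPM in lean, 35.6 to 43.9 CPM in HFD control and 44.4 to 52.0 CPM in NM-FGF19. All 4 NM-FGF19 livers were above all HFD control livers for Irf9, without a call. Irf1, the factor best known from the interferon gamma response, ranged over 16.2 to 47.9, 26.8 to 40.5 and 34.7 to 44.9 CPM in the 3 groups, which overlapped.

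Of the sensors, Zbp1 was called higher in HFD control by edgeR and the other 2 were not. Zbp1, which binds Z-form nucleic acids and can start necroptosis, was at 10.3, 12.1, 6.68 and 9.52 CPM in lean livers, 28.0, 14.5, 25.5 and 12.5 CPM in HFD control livers and 13.1, 12.2, 13.97 and 24.3 CPM in NM-FGF19 livers. All 4 HFD control livers lay above lean, with livers 1 and 3 highest, and the log2 change was 1.06 ± 0.30 (SE; edgeR adjusted p = 0.0473). This call was lost without any one of the 4 lean livers, HFD control 1 or HFD control 3, with an adjusted p of up to 0.129. Ifih1, which encodes the long double-stranded RNA sensor MDA5, was at 45.7, 46.1, 37.1 and 39.4 CPM in lean, 45.0, 43.8, 35.2 and 34.0 CPM in HFD control and 55.2, 55.2, 53.6 and 50.7 CPM in NM-FGF19. The 4 NM-FGF19 livers were above every liver of the other groups, and against HFD control edgeR gave an adjusted p of 0.183, while DESeq2 gave a log2 difference of 0.44 with an adjusted p of 0.0416. Dhx58, which encodes the sensor LGP2, ranged over 12.8 to 18.6, 15.9 to 25.6 and 20.9 to 27.7 CPM, with NM-FGF19 above lean and HFD control overlapping it. DESeq2 called Dhx58 higher than lean in HFD control (DESeq2 adjusted p = 0.0322) and in NM-FGF19 (DESeq2 adjusted p = 0.0179).

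Of the antiviral effectors, 12 of 18 genes were higher in HFD control, 0 were lower and the median log2 change was 1.40. Without HFD control 1 or HFD control 3 the 12 calls became 7, and without lean 3 and HFD control 3 together they became 6. With DESeq2 there were 15, with library totals as the scale 15 and with limma voom 9. In NM-FGF19 against lean, 5 of 18 were higher, with a median of 1.03. These 5 calls became 2 without any one of the 4 lean livers, NM-FGF19 1 or NM-FGF19 4, and 3 without NM-FGF19 3. With DESeq2 they became 14 of 18, with library totals 7 and with limma voom 2. Between NM-FGF19 and HFD control the median log2 difference of the 18 genes was -0.14, with 0 called.

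The oligoadenylate synthetases make the messenger that activates RNase L, an enzyme that cuts RNA. Oas1a (ENSMUSG00000052776), whose promoter is printed above, was at 1.95, 3.39, 2.70 and 4.24 CPM in lean livers, 15.04, 11.1, 16.8 and 7.61 CPM in HFD control livers and 12.9, 9.54, 13.2 and 21.6 CPM in NM-FGF19 livers. Both high-fat groups lay wholly above lean, by 4.13-fold in HFD control and 4.67-fold in NM-FGF19. The log2 changes were 2.05 ± 0.32 (SE; edgeR adjusted p = 0.00501) and 2.22 ± 0.32 (edgeR adjusted p = 0.00937), and both calls held with any one library left out. Oas3, the family member that responds to long double-stranded RNA, was at 0.890, 2.60, 2.34 and 3.06 CPM in lean, 11.8, 10.5, 20.9 and 5.34 CPM in HFD control and 7.70, 5.23, 9.03 and 7.71 CPM in NM-FGF19. Its log2 change in HFD control was 2.46 ± 0.42 (SE; edgeR adjusted p = 0.00772), the largest of the 46, and in NM-FGF19 it was 1.75 ± 0.42 without a call (edgeR adjusted p = 0.0578), while DESeq2 called it (DESeq2 adjusted p = 0.00145). Oasl2 was at 6.37, 9.24, 6.01 and 9.26 CPM in lean, 34.9, 25.5, 41.0 and 18.3 CPM in HFD control and 25.5, 14.1, 23.2 and 42.6 CPM in NM-FGF19, with HFD control 4 and NM-FGF19 2 the lowest of their groups and still above lean. Its log2 changes were 1.95 ± 0.33 (SE; edgeR adjusted p = 0.00807) and 1.77 ± 0.33 (edgeR adjusted p = 0.0233), the second lost without any one of the lean livers, NM-FGF19 1 or NM-FGF19 4.

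Oas2 and Oas1g also rose in HFD control, by log2 1.16 ± 0.28 (SE; edgeR adjusted p = 0.0232) and 1.74 ± 0.47 (edgeR adjusted p = 0.0403). Oas2 ranged over 4.997 to 7.12 CPM in lean and 7.87 to 18.4 CPM in HFD control. Its call was lost without lean 1, 2 or 3 or HFD control 1 or 3, up to an adjusted p of 0.0686. Oas1g, a close copy of Oas1a whose reads may be split with it, ranged over 0.662 to 1.61 CPM in lean and 2.92 to 9.16 CPM in NM-FGF19, where the log2 change was 2.13 ± 0.48 (SE; edgeR adjusted p = 0.0471). The Oas1g calls were lost without most single libraries, up to an adjusted p of 0.119 in HFD control and 0.114 in NM-FGF19. Oasl1, which represses translation of Irf7 mRNA, was not called, at 11.3 to 20.9 CPM in lean, 11.4 to 26.4 CPM in HFD control and 19.3 to 22.0 CPM in NM-FGF19, all overlapping.

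Of the IFIT genes, whose products bind viral RNA ends and block translation, Ifit2 was at 3.29, 6.41, 2.24 and 4.89 CPM in lean, 20.3, 12.9, 21.6 and 9.83 CPM in HFD control and 9.88, 8.54, 14.9 and 19.2 CPM in NM-FGF19. The groups on the high-fat diet did not overlap lean, and the log2 changes were 1.94 ± 0.37 (SE; edgeR adjusted p = 0.0113) and 1.64 ± 0.36 (edgeR adjusted p = 0.0471). The second was lost without every single library but NM-FGF19 2. Ifit3 was at 10.9, 12.3, 3.46 and 11.6 CPM in lean, 33.8, 20.01, 40.6 and 18.2 CPM in HFD control and 17.2, 22.6, 22.0 and 36.8 CPM in NM-FGF19, so that lean 3 lay far below the other lean livers. Its log2 change was 1.55 ± 0.39 in HFD control (SE; edgeR adjusted p = 0.0314) and 1.36 ± 0.39 in NM-FGF19 (edgeR adjusted p = 0.102), where DESeq2 called it (DESeq2 adjusted p = 0.00891). The near-identical Ifit3b changed by 1.47 ± 0.36 in HFD control (SE; edgeR adjusted p = 0.0265), and the 2 genes may share reads. Both calls were lost without some single livers, HFD control 1 and HFD control 3 among them, up to adjusted p-values of 0.0925 for Ifit3 and 0.0729 for Ifit3b. Ifit1 had a log2 change of 0.98 ± 0.32 (SE; edgeR adjusted p = 0.0766) and was not called, although its HFD control livers, at 10.7 to 19.3 CPM, all lay above lean, at 2.96 to 9.70 CPM, and DESeq2 called it (DESeq2 adjusted p = 0.0223).

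Ifi44, a transcript widely used to read out the type I response, was at 2.94, 3.71, 1.02 and 3.23 CPM in lean, 18.8, 11.1, 19.3 and 10.8 CPM in HFD control and 14.9, 12.7, 16.2 and 34.8 CPM in NM-FGF19. NM-FGF19 4 held the highest level and lean 3 the lowest. The log2 changes were 2.45 ± 0.41 (SE; edgeR adjusted p = 0.00793) and 2.84 ± 0.42 (edgeR adjusted p = 0.0122), and both held with any one library left out. Rsad2, which encodes viperin, the enzyme that makes a chain-ending nucleotide, was at 8.21, 11.3, 6.01 and 9.30 CPM in lean, 40.0, 20.1, 23.5 and 20.3 CPM in HFD control and 13.2, 13.3, 16.7 and 19.3 CPM in NM-FGF19. It rose by 1.58 ± 0.25 on the log2 scale in HFD control (SE; edgeR adjusted p = 0.00502). Its NM-FGF19 livers all lay below its HFD control livers and above its lean livers. The log2 difference of NM-FGF19 from HFD control was -0.73 ± 0.24 (95% interval -1.25 to -0.21; edgeR adjusted p = 0.32) and was not called. Against lean, Rsad2 in NM-FGF19 was not called by edgeR, while DESeq2 called it higher (DESeq2 adjusted p = 0.0279). Cmpk2, the neighbour of Rsad2 and a nucleotide kinase, had a log2 change of 1.03 ± 0.34 in HFD control (SE; edgeR adjusted p = 0.0778) with overlapping groups, and DESeq2 called it (DESeq2 adjusted p = 0.0252).

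Of the membrane and dynamin-like effectors, Bst2 and Mx1 rose in HFD control. Bst2, the tether that holds budding virus on the cell, was at 131, 134, 111 and 144 CPM in lean, 271, 186, 269 and 225 CPM in HFD control and 168, 192, 203 and 289 CPM in NM-FGF19. Its log2 change in HFD control was 0.87 ± 0.18 (SE; edgeR adjusted p = 0.0139). Mx1 rose by 1.33 ± 0.32 in HFD control (SE; edgeR adjusted p = 0.0239), from 1.79 to 2.84 CPM to 2.93 to 9.08 CPM, a call lost without lean 3, lean 4, HFD control 1 or HFD control 3, up to an adjusted p of 0.0712. Mx2 had the lowest log2 change of the 46 in HFD control, with 6.40, 11.5, 9.68 and 11.2 CPM in lean and 7.23, 7.82, 4.85 and 4.83 CPM in HFD control, groups that overlapped without a call. C57BL/6 mice carry defective alleles of both Mx genes. Ifitm3, which blocks entry of enveloped viruses, ranged over 444 to 555, 517 to 667 and 594 to 837 CPM, and Rtp4, a chaperone of receptors, over 7.90 to 19.96, 22.0 to 40.1 and 24.5 to 34.4 CPM, both without a call by edgeR. DESeq2 called Rtp4 in HFD control (DESeq2 adjusted p = 0.0185) and in NM-FGF19 against lean (DESeq2 adjusted p = 0.0408), and Ifitm3 in NM-FGF19 against lean (DESeq2 adjusted p = 0.0394).

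**Figure D2:**
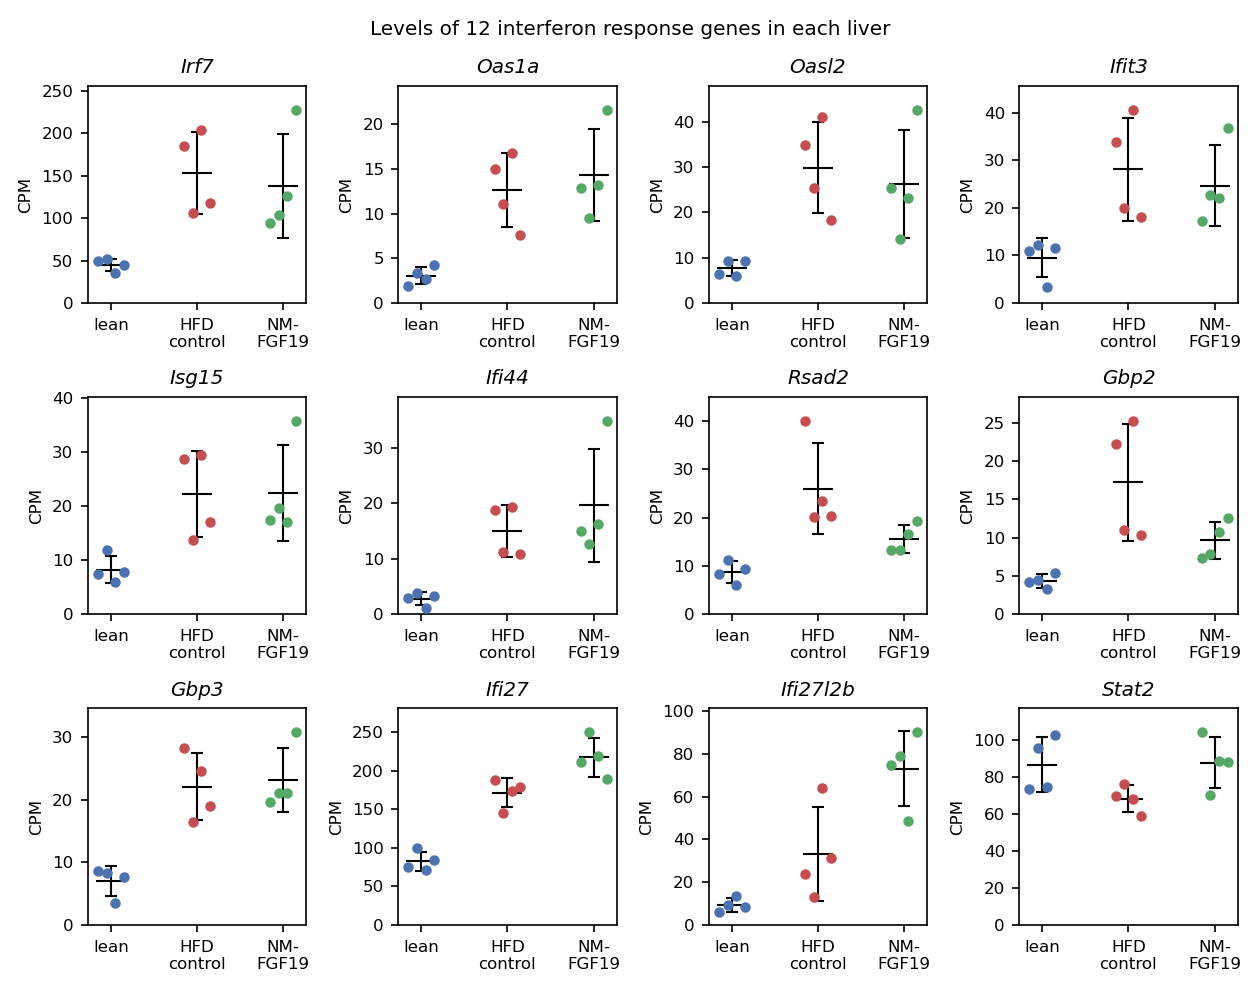
CPM of 12 of the genes in each liver, with a point per liver and a line and bar for the mean ± SD of the 4 livers of a group. Irf7, Oas1a, Ifi44 and Gbp3 lie above lean in all 8 livers on the high-fat diet, while Stat2 overlaps in all 3 groups.

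In the ISG15, PARP, TRIM and IFI27 group, 5 of 10 genes rose in HFD control and 5 of 10 in NM-FGF19 against lean, with 0 lower and medians of 1.08 and 1.17 on the log2 scale. The 5 genes were the same in both comparisons. Isg15, the ubiquitin-like tag of the response, was at 7.39, 11.8, 5.91 and 7.78 CPM in lean, 28.6, 13.7, 29.3 and 17.1 CPM in HFD control and 17.5, 19.6, 17.0 and 35.7 CPM in NM-FGF19. Its log2 changes were 1.43 ± 0.32 (SE; edgeR adjusted p = 0.019) and 1.45 ± 0.32 (edgeR adjusted p = 0.0457), lost without some single livers up to adjusted p-values of 0.0563 and 0.103. Usp18, the protease that removes that tag and also dampens the type I receptor, rose by 1.22 ± 0.24 (SE; edgeR adjusted p = 0.0125) and 1.32 ± 0.24 (edgeR adjusted p = 0.0216). Its levels ranged over 5.37 to 10.1 CPM in lean, 11.9 to 24.2 CPM in HFD control and 16.4 to 25.6 CPM in NM-FGF19, and the second call was lost without lean 3, lean 4, NM-FGF19 1 or NM-FGF19 4, up to an adjusted p of 0.0603. Trim30a, a ubiquitin ligase that restrains NF-κB signalling and whose promoter is printed above, was at 10.3, 12.4, 8.46 and 12.3 CPM in lean, 26.4, 21.5, 27.6 and 18.0 CPM in HFD control and 21.3, 17.5, 23.5 and 25.7 CPM in NM-FGF19. Its log2 changes were 1.10 ± 0.18 (SE; edgeR adjusted p = 0.00516) and 1.02 ± 0.18 (edgeR adjusted p = 0.0176), the second lost without NM-FGF19 4 at an adjusted p of 0.0515.

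The IFI27 family, small proteins of mitochondrial and nuclear membranes, included 2 of the 5 called genes. Ifi27 (ENSMUSG00000064215) was at 75.7, 99.7, 71.1 and 83.8 CPM in lean, 188, 145, 174 and 179 CPM in HFD control and 210.4, 249.7, 219 and 189 CPM in NM-FGF19. The 3 groups did not overlap, with HFD control between lean and NM-FGF19. Ifi27 changed by 1.05 ± 0.14 in HFD control (SE; edgeR adjusted p = 0.00285) and by 1.39 ± 0.14 in NM-FGF19 against lean (edgeR adjusted p = 0.00208), the smallest adjusted p of the 46 in both of these comparisons. Ifi27l2b was at 5.89, 9.19, 13.6 and 8.21 CPM in lean, 24.0, 13.0, 64.1 and 31.4 CPM in HFD control and 74.6, 79.0, 48.7 and 90.2 CPM in NM-FGF19, so that HFD control 2 fell inside the lean range and HFD control 3 inside the NM-FGF19 range. Its log2 change against lean was 1.85 ± 0.43 in HFD control (SE; edgeR adjusted p = 0.0239) and 2.99 ± 0.44 in NM-FGF19 (edgeR adjusted p = 0.0122), or 7.97-fold, and the first was lost without lean 1, 2 or 4 or HFD control 3. NM-FGF19 exceeded HFD control for Ifi27l2b by 1.14 ± 0.41 (95% interval 0.24 to 2.04; edgeR adjusted p = 0.408), which was not called. Ifi27l2a, the third member, was at 4.38 to 9.47 CPM in lean, 24.4, 21.7, 49.8 and 21.0 CPM in HFD control and 15.8, 8.73, 10.5 and 66.4 CPM in NM-FGF19, and HFD control 3 and NM-FGF19 4 stood far above the rest of their groups. Its changes of 2.12 ± 0.64 (SE; edgeR adjusted p = 0.065) and 1.92 ± 0.64 (edgeR adjusted p = 0.157) were not called by edgeR. DESeq2 called the first (DESeq2 adjusted p = 0.0123), and the second became 0.80 without NM-FGF19 4. These 3 genes belong to 1 family and may share reads.

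Parp9 and Dtx3l, which form a complex of a PARP and a ubiquitin ligase, and Parp14, another ADP-ribosylating enzyme, had overlapping levels in lean and HFD control. Parp9 ranged over 43.8 to 61.9 CPM in lean and 57.5 to 63.5 CPM in HFD control, Dtx3l over 43.0 to 68.3 and 61.5 to 80.2 CPM and Parp14 over 33.7 to 62.2 and 50.8 to 73.0 CPM. Xaf1, an activator of apoptosis, stood at 7.29 to 11.1 CPM in lean, 10.5 to 17.5 CPM in HFD control and 12.3 to 22.3 CPM in NM-FGF19, and none of these 4 genes was called by edgeR in any of the 3 comparisons. DESeq2 called Xaf1 in NM-FGF19 against lean (DESeq2 adjusted p = 0.0459).

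Of the guanylate-binding proteins and IRG GTPases, which attack the vacuoles of microbes and respond strongly to interferon gamma, 4 of 8 rose in HFD control, namely Gbp2, Gbp3, Gbp5 and Gbp6, and 0 fell, with a median log2 change of 1.12. None of Gbp7, Igtp, Irgm1 and Irgm2 was called by edgeR, and DESeq2 called Igtp as well (DESeq2 adjusted p = 0.0171). With library totals as the scale 5 were called, and with 1 library left out 3 to 5. Gbp2, whose promoter is printed above, was at 4.21, 4.46, 3.26 and 5.37 CPM in lean, 22.3, 11.04, 25.3 and 10.3 CPM in HFD control and 7.33, 7.92, 10.8 and 12.5 CPM in NM-FGF19. All HFD control livers exceeded lean and all NM-FGF19 livers did too, and HFD control 1 and 3 were far above HFD control 2 and 4. Its log2 change was 1.99 ± 0.31 in HFD control (SE; edgeR adjusted p = 0.00457), and the difference of NM-FGF19 from HFD control was -0.84 ± 0.29 (95% interval -1.47 to -0.21; edgeR adjusted p = 0.377), which was not called. Gbp3 was at 8.62, 8.31, 3.46 and 7.69 CPM in lean, 28.3, 16.4, 24.6 and 19.0 CPM in HFD control and 19.6, 21.0, 21.0 and 30.8 CPM in NM-FGF19, with log2 changes of 1.65 ± 0.27 (SE; edgeR adjusted p = 0.00578) and 1.71 ± 0.27 (edgeR adjusted p = 0.0122). Gbp5 rose by 1.38 ± 0.32 (SE; edgeR adjusted p = 0.0204), from 0.815 to 1.66 CPM to 2.41 to 4.88 CPM, a call lost without HFD control 1 or HFD control 3 at an adjusted p of up to 0.0623. Gbp6 rose by 1.72 ± 0.36 (SE; edgeR adjusted p = 0.0137) and by 1.58 ± 0.36 in NM-FGF19 (edgeR adjusted p = 0.0471), the second lost whichever library was left out. Gbp genes resemble each other in sequence and may share reads.

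Against lean, NM-FGF19 was higher for 2 of the 8 GTPases, Gbp3 and Gbp6, with a median of 0.99, and 1 call was left without lean 2, lean 3, lean 4 or any one NM-FGF19 liver. Irgm1, a regulator of the other IRG proteins, ranged over 39.5 to 81.3, 56.2 to 83.7 and 68.4 to 93.0 CPM, and Irgm2 over 19.1 to 59.5, 56.6 to 90.4 and 68.1 to 105 CPM. Igtp was at 9.63 to 24.7, 22.4 to 42.4 and 25.2 to 33.7 CPM and Gbp7 at 6.27 to 16.6, 13.6 to 20.1 and 17.3 to 22.8 CPM. For Igtp, Irgm2 and Gbp7 the NM-FGF19 livers lay above lean without overlap and without a call by edgeR. In NM-FGF19 against lean, DESeq2 also called Gbp7 (DESeq2 adjusted p = 0.0241), Gbp2 (DESeq2 adjusted p = 0.0092) and Gbp5 (DESeq2 adjusted p = 0.00637). DESeq2 thus called 5 of the 8 GTPases there, and limma voom called 1. Set side by side with the 18 antiviral effectors, of which 12 were higher in HFD control at a median of 1.40, the 8 GTPases had 4 higher at a median of 1.12. Without lean 3 and HFD control 3 these counts were 6 of 18 and 3 of 8, and the difference between these roles was not tested.

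None of the 3 peptide-processing genes was called in any comparison. Tap1, which pumps peptides into the endoplasmic reticulum, ranged over 15.3 to 36.0 CPM in lean, 36.5 to 56.8 CPM in HFD control and 43.6 to 53.4 CPM in NM-FGF19, and the immunoproteasome subunits Psmb8 and Psmb9 over 21.7 to 30.3 and 17.2 to 24.6 CPM in lean and 28.9 to 42.6 and 18.2 to 34.1 CPM in HFD control. Their median log2 change in HFD control was 0.49, and HFD control lay above lean without overlap for Tap1 alone.

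**Figure D3:**
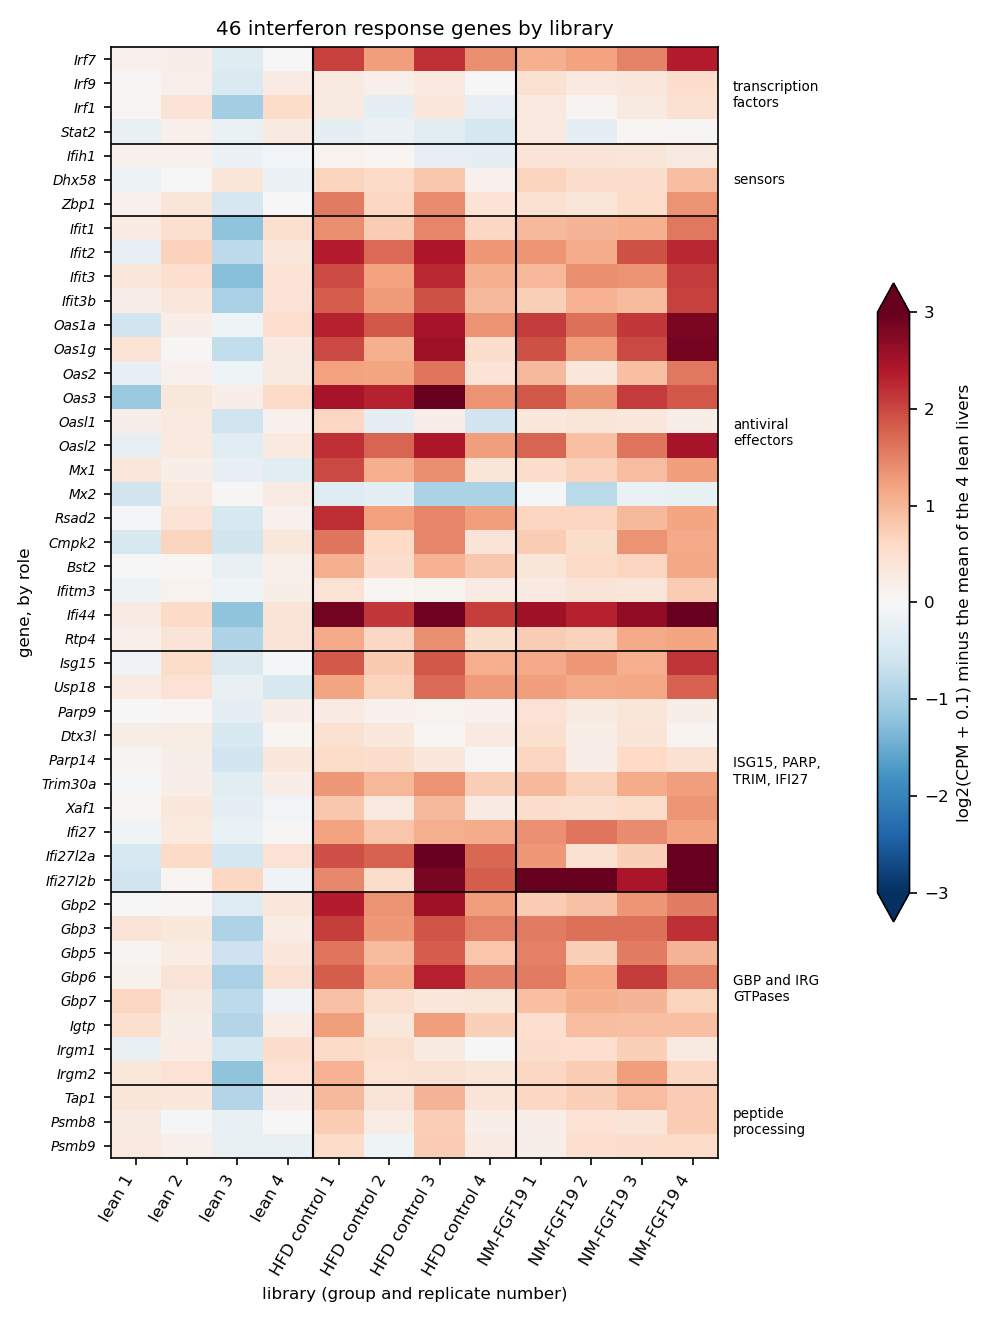
Level of the 46 genes in the 12 livers as log2 of CPM plus 0.1, relative to the lean mean, with colour running from -3 to 3. HFD control 1 and 3 and NM-FGF19 4 show the strongest rise, and lean 3 the lowest levels, for many genes at once.

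Within groups, the same livers held the highest or lowest level for many of the genes. Lean 3 held the lowest lean level for 36 of the 46 genes. HFD control 3 held the highest HFD control level for 27 and HFD control 1 for 17, while HFD control 4 held the lowest for 29 and HFD control 2 for 14. NM-FGF19 4 held the highest level of its group for 29. The median log2 level of the 46 genes relative to the lean mean was 0.07, 0.28, -0.44 and 0.23 in lean livers 1 to 4, 1.23, 0.62, 1.40 and 0.54 in HFD control and 0.74, 0.70, 0.97 and 1.19 in NM-FGF19. Every liver on the high-fat diet was above every lean liver on this median. In NM-FGF19 against lean, 34 of the 46 genes had no overlap between the groups, all higher, against 5.46% of all genes tested.

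**Figure D4:**
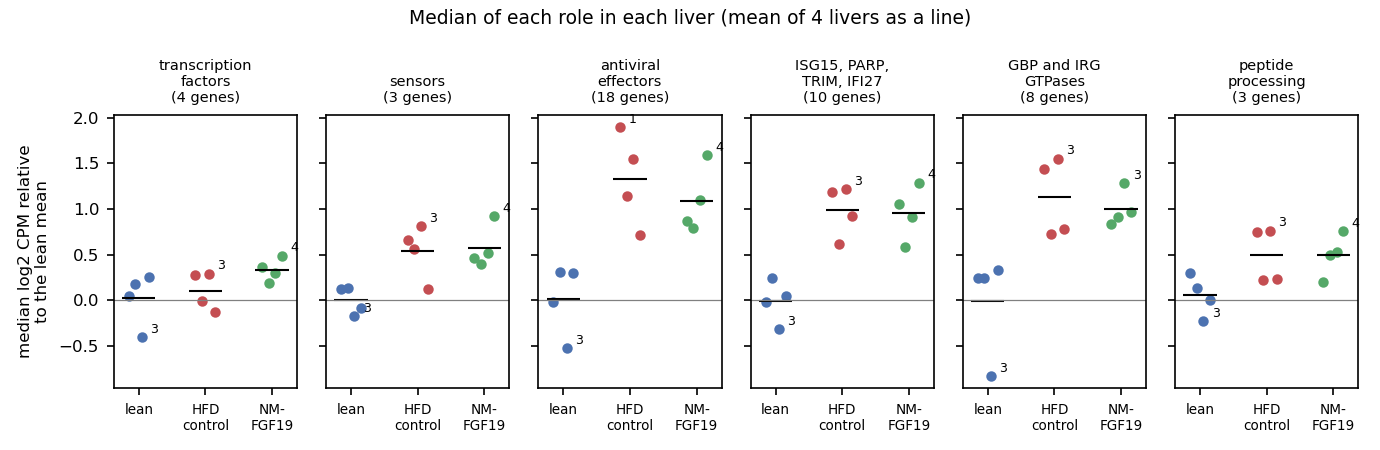
Median log2 CPM, relative to the lean mean, of the genes of each role in each liver, with 1 point per liver and the replicate number of the lowest lean and the highest HFD control and NM-FGF19 livers. The antiviral effectors and the GTPases lie well above lean in the 8 livers on the high-fat diet, and the transcription factors do not.

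Interferon mRNAs themselves were at or near the floor in bulk liver. Of 12 interferon genes, 9 had 0 counts in all 12 libraries and 0 passed the filter. Ifnb1 had 2 counts in all, and Ifnk and Ifng had 13 each, with at most 4 in a library. At this depth a change in these genes could not be measured.

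Most of the machinery upstream of the 46 genes was not called. Of 16 receptors, kinases, STATs and brakes of the interferon pathway, 2 fell in HFD control, against 3.29% of all genes tested called lower. Stat3, best known from interleukin-6 signalling, had a log2 change of -1.25 ± 0.29 (SE; edgeR adjusted p = 0.0214) and the phosphatase gene Ptpn2 one of -0.67 ± 0.19 (edgeR adjusted p = 0.0474). With 1 library left out, the call was lost in 2 of 8 fits for Stat3 and in 7 of 8 for Ptpn2, up to adjusted p-values of 0.0668 and 0.120. Of 20 genes of nucleic acid sensing, 3 rose and 0 fell, with a median of 0.09, against 5.04% of all genes tested called higher. These were Tlr9, the endosomal DNA receptor, by 1.91 ± 0.45 (SE; edgeR adjusted p = 0.0221), Cgas, the cytosolic DNA sensor, by 1.22 ± 0.35 (edgeR adjusted p = 0.0494) and its adaptor Sting1 by 0.95 ± 0.27 (edgeR adjusted p = 0.0477). Cgas and Sting1 each lost their call in 7 of 8 fits with 1 library left out and Tlr9 in 3 of 8. In both other comparisons 0 genes of these lists were called.

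Some further interferon-induced genes outside the 46 were also higher in HFD control. Of 60 such genes, 58 were tested. In HFD control against lean 23 were higher, 0 lower and 35 not called, at a median log2 change of 0.75, against 5.04% of all genes tested called higher. In NM-FGF19 against lean 11 were higher and 0 lower, at a median of 0.56, against 1.01% of all genes tested called higher. Between NM-FGF19 and HFD control 0 were called, at a median of -0.10. The smallest adjusted p-values in HFD control were those of Ms4a4c, with a log2 change of 3.69 ± 0.52 (SE; edgeR adjusted p = 0.00285), Samd9l, with 1.23 ± 0.18 (edgeR adjusted p = 0.00316), and the guanylate-binding gene Gbp9, with 1.26 ± 0.20 (edgeR adjusted p = 0.00489).

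Markers of other liver cells moved between the same groups. In a bulk sample, fewer cells of a type and less RNA per cell cannot be told apart. The marker counts below stand beside 5.04% of all genes called higher and 3.29% called lower in HFD control against lean. In NM-FGF19 against lean, 1.01% of all genes were called higher. Of 8 markers of monocyte-derived or lipid-associated macrophages, 6 were higher in HFD control than in lean and 4 were higher in NM-FGF19 than in lean, and their summed level was 67.5 to 305 CPM in lean, 107 to 331 CPM in HFD control and 77.3 to 211 CPM in NM-FGF19. Resident Kupffer cell markers summed to 427 to 583 CPM in lean and 126 to 463 CPM in HFD control, with 5 of 7 called lower. Pan-leukocyte markers summed to 222 to 293 CPM in lean, 177 to 404 CPM in HFD control and 155 to 234 CPM in NM-FGF19, with 2 of 5 called higher in HFD control. HFD control 1 and 3, the livers with most of the highest interferon gene levels, had macrophage sums of 181 and 331 CPM, and lean 3, with most of the lowest, had 305 CPM. The marker Spp1 is in both the macrophage list and the bile duct list. Bile duct sums were 279 CPM in lean 3 and 53.7, 90.1 and 110 CPM in lean 1, 2 and 4. Both sums hold the reads of Spp1, so they cannot show which cells those reads came from. The macrophage sums may include Spp1 from bile duct cells, and whether they do was not tested.

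Markers of plasmacytoid dendritic cells, the main source of type I interferon in blood, summed to 0.786 to 1.17 CPM in lean and 1.01 to 3.22 CPM in HFD control, and those of T and NK cells, sources of interferon gamma, to 6.98 to 10.7 CPM and 9.88 to 14.9 CPM. Neither list had a called gene. No marker of any list was at 0 throughout a group. Stellate cell markers summed to 174 to 222 CPM in lean, 283 to 672 CPM in HFD control and 249.97 to 607 CPM in NM-FGF19, with 2 of 6 called higher in HFD control. In the same comparison 2 of 5 sinusoidal endothelial markers were called higher, 1 of 5 neutrophil and 1 of 5 bile duct markers lower, and 0 of the B cell and conventional dendritic cell markers either way. A count of 1 of 5 rests on a single gene. Hepatocyte markers summed to 70177 to 82857 CPM in lean, 41781 to 61512 CPM in HFD control and 75625 to 118953 CPM in NM-FGF19, so that every HFD control liver lay below every lean liver, and 0 of these 6 genes were called. The part of these cell types in the interferon gene levels was not tested.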

How the data were processed

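Liver RNA of 12 mice was sequenced, with 4 mice in each of the 3 groups. The labels describe stranded mRNA libraries from 100 ng of RNA and paired reads of 101 nt. Raw counts make up the deposited table, which the authors made with Trimmomatic, STAR and featureCounts on mm39, per the submitters' processing notes. For tool versions, annotation and strand mode the entry is "not given in the sources used here". Antisense and near-identical genes may therefore share reads.

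Here, genes passing filterByExpr (minimum count 10) were fitted in edgeR 4.0.16 (R 4.3.3) with TMM factors, all 12 libraries in 1 fit with group as the only term. The robust quasi-likelihood F test was 2-sided, with Benjamini-Hochberg adjustment over the 15274 genes tested and a threshold of 0.05. The SE is the one implied by the F statistic. The medians by liver use log2 CPM with a prior count of 2. DESeq2 1.42.0, limma 3.58.1 (voom), other scalings, filters and sample sets were alternatives. The labels number the mice but do not say how they were housed, so p-values measure the spread between these mice. The fit was tested on simulated data.

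A log2 change is printed for called genes and for up to 3 uncalled genes with the largest change in a comparison. From the other pathway lists, called genes of the receptor and sensing lists and the 3 smallest adjusted p-values of the further induced genes are named, except 1 result of the receptor list that is not reported here. The genes, lists and tests were chosen with earlier results of these data known. The floor of 3 counts covers counting error only. Baseline mice on the high-fat diet are not analysed here.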

Additional observations from a re-analysis of the deposited data

Results flagged for a closer look

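In 138 sets of 4 livers, the highest or lowest liver was compared with the nearest other one by its gap as a share of the whole range of the 4. This flagged 13 sets, where chance flags about 1 in 20. Lean 3 was the lowest of its group for Ifit1 (0.856), Ifit3 (0.905), Ifit3b (0.832), Gbp3 (0.873), Irgm2 (0.948) and Tap1 (0.869). NM-FGF19 4 was the highest of its group for Ifit1 (0.839), Xaf1 (0.916) and Gbp3 (0.846). NM-FGF19 1 was the lowest of its group for Igtp (0.925) and Psmb9 (0.878). HFD control 3 was the highest for Ifi27l2a (0.8292), and HFD control 1 the highest for Irgm2 (0.870). Lean 3, HFD control 3 and NM-FGF19 4 also stood apart from their groups over all genes, and their part in these values was not tested.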

How the results depend on the processing

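Genes higher in HFD control than in lean numbered 23, and became 14 with a replicate block, 13 without lean 3 and HFD control 3 together and 14 to 24 with 1 library left out. Other settings gave 29 (DESeq2), 19 (voom), 33 (library totals), 19 (no filter) and 20 (the 2 groups alone). Over all genes, those called higher in HFD control numbered 770, and became 1299 with DESeq2, 612 with voom and 384 with a replicate block. Genes higher in NM-FGF19 than in lean numbered 13, and became 27 with DESeq2, 8 with voom, 4 with a replicate block and 6 to 11 with 1 library left out. Over all genes, those called higher in NM-FGF19 than in lean numbered 154, and became 601 with DESeq2, 65 with voom and 25 with a replicate block. Between NM-FGF19 and HFD control, 0 became 1 with DESeq2, which was Ifih1, while calls higher over all genes went from 43 to 175. The median log2 difference of the genes there, 0.05, became -0.10 with library totals and ran from -0.0932 to 0.148 with 1 library left out, so its sign was not stable. The cause of these changes was not tested. No log2 change printed against lean or against HFD control changed sign in a setting run for it; genes given by levels alone were not followed. With library totals the median of all genes in HFD control against lean was 0.29, and calls over all genes were 2381 higher and 228 lower, against 770 and 502 with TMM. Same-numbered mice did not pair, since their deviations correlated at -0.363 to 0.0712 and 0 of 12 pairs passed 0.1, and a library correlated best with its own number in 2 of 24 cases. Genes near 1 CPM, such as Oas1g and Gbp6, rest on few reads, and interferon mRNAs were too scarce to test.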
